A study of Mus musculus with 19 samples.

Results

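The genes described here are 10 transcripts that microglia, the resident macrophages of the brain, make in the undisturbed state: P2ry12, P2ry13, Gpr34, Cx3cr1, Csf1r, Siglech, Selplg, Tmem119, Olfml3 and Sall1. They were chosen by symbol, matched through GENCODE M21 to 1 Ensembl identifier each, and are 10 of the 48709 genes in the raw count files. All 10 were among the 19297 genes with enough counts to be tested. RNA came from the microdissected CA1 region of the hippocampus of mice aged 7 months, with 1 library per sample in 19 samples, and the lists of other cell types used below show that the tissue holds neurons, astrocytes and oligodendrocytes along with microglia. WT control (n = 6) were littermates without the transgenes. The APPPS1-21 mice formed the groups APP control (n = 6) and, with the mixture, APP anti-miR-mix (n = 7), and carry transgenes, mutant APP among them, under Thy1 regulatory sequence and so make the transgene products mainly in neurons. Every animal, controls included, had lipid nanoparticles injected into the dorsal hippocampus of both hemispheres. The control groups received a scrambled oligonucleotide, per the study, and APP anti-miR-mix received inhibitors of 3 microRNAs: miR-148a-3p, miR-181a-5p and also miR-146a-5p. The titles of the wild-type samples name the mixture beside the word control, and the study's description of them as given a control oligonucleotide was followed. An untreated animal was not analysed here.

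Microglia in the healthy brain survey tissue with motile processes, and the homeostatic genes encode much of the equipment for it: receptors for nucleotides released by other cells, the receptor for the neuronal chemokine fractalkine, the receptor for the growth factors that keep microglia alive, and the transcription factor that holds their identity. Transforming growth factor beta maintains this set. Around amyloid plaques microglia multiply and turn on another set, led by Trem2, Tyrobp and Cst7, and single-cell work on such microglia has described a lower share of homeostatic transcripts per cell. In whole tissue the 2 processes act on the same measured number, so the question asked of each gene was whether it rose with the amount of microglial RNA or stayed flat.

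Total counts ranged from 19362343 to 37018917 per library. Genotype labels were checked with Thy1, whose regulatory sequence the transgenes carry: its level was 18117 to 20734 normalized counts in WT control and 36153 to 62866 in both APPPS1-21 groups together, without overlap. The amount of microglial RNA was followed with a reference of 12 genes that microglia express in both states (among them C1qa, C1qb, C1qc, Aif1, Itgam, Ptprc, Spi1 and Irf8). The reference score, the mean of log2(normalized count + 1) over these genes, averaged 9.33 ± 0.386 among the 6 WT control libraries, 10.47 ± 0.430 among the 6 of APP control and 10.58 ± 0.305 among the 7 of APP anti-miR-mix (mean ± SD). APP control exceeded WT control by 1.14 (two-sided exact permutation test, p = 0.00433, adjusted p = 0.00649 over 3 comparisons) and APP anti-miR-mix exceeded it by 1.25 (exact permutation p = 0.00117, adjusted p = 0.0035). The 2 APPPS1-21 groups differed by 0.11 (exact permutation p = 0.58). In bulk tissue fewer cells of a type and less RNA per cell cannot be told apart, so the reference stands for microglial RNA and not for a cell count. The labels do not say whether samples of a group came from separate litters, and p-values measure the spread between these samples.

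Single libraries within groups stood apart in microglial genes. APP control 5 was the lowest of its group in 9 of the 10 homeostatic genes and lay within or below the WT control range in 9, and APP control 5 and 6 were the lowest pair in 8. Their reference scores were 9.86 and 10.03, against a highest WT control score of 9.88. APP control 5 also held 1210 normalized counts of S100a8 and 1523 of S100a9, neutrophil genes that reached at most 31.9 and 66.3 in the other libraries, and a summed level of 3007 over 12 blood leukocyte genes against 126 to 529 in the other libraries. Ly6g and Ms4a1 of that list were at or under 3 counts in the median library. WT control 5 and APP anti-miR-mix 6 were high in choroid plexus genes, with summed levels of 2448 and 1724 over 8 genes. The other libraries held 435 to 928. Folr1 and Otx2 of these genes were at or under 3 counts in the median library. In WT control the highest level of each gene fell in library 1 for 5 members and in library 5 for the other 5. These libraries were also the highest of WT control in Cst7, a gene of the plaque response, at 154 and 251 normalized counts against 27.2 to 54.9. Results below are given without WT control 1 and 5 together, or without any single library, where that changed a call. The libraries high in choroid plexus genes were also left out together. Leaving out the control libraries highest in the members lowers the WT control level, so a call gained this way is not separate support.

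Levels in WT control, per kilobase of exon length so that genes can be compared, were highest for Csf1r (752 ± 117 normalized counts per kb, mean ± SD, n = 6) and followed by Cx3cr1 (470 ± 85.8), P2ry12 (419 ± 121), Tmem119 (370 ± 64.2), Selplg (266 ± 39.8), Siglech (203 ± 40.2), Sall1 (182 ± 19.9), P2ry13 (173 ± 20.7), Gpr34 (163 ± 66.8) and Olfml3 (127 ± 25.9). Csf1r stood above Cx3cr1, Tmem119 above Selplg and Selplg above Siglech by more than the larger SD of each pair. The other neighbours in this order, Cx3cr1 with P2ry12, P2ry12 with Tmem119 and every pair from Siglech to Olfml3, differed by less than that. In APP control the first 6 genes kept this order, with Csf1r at 1426 ± 378 and Cx3cr1 at 873 ± 271 per kb. Cx3cr1 and P2ry12, within 1 SD of each other in WT control, were 315 normalized counts per kb apart in APP control, above the larger SD of 271. Tmem119 and Selplg (73.9 per kb apart) and Selplg and Siglech (81.5), which stood apart in WT control, differed there by less than the larger SD of 157.

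**Figure D1:**
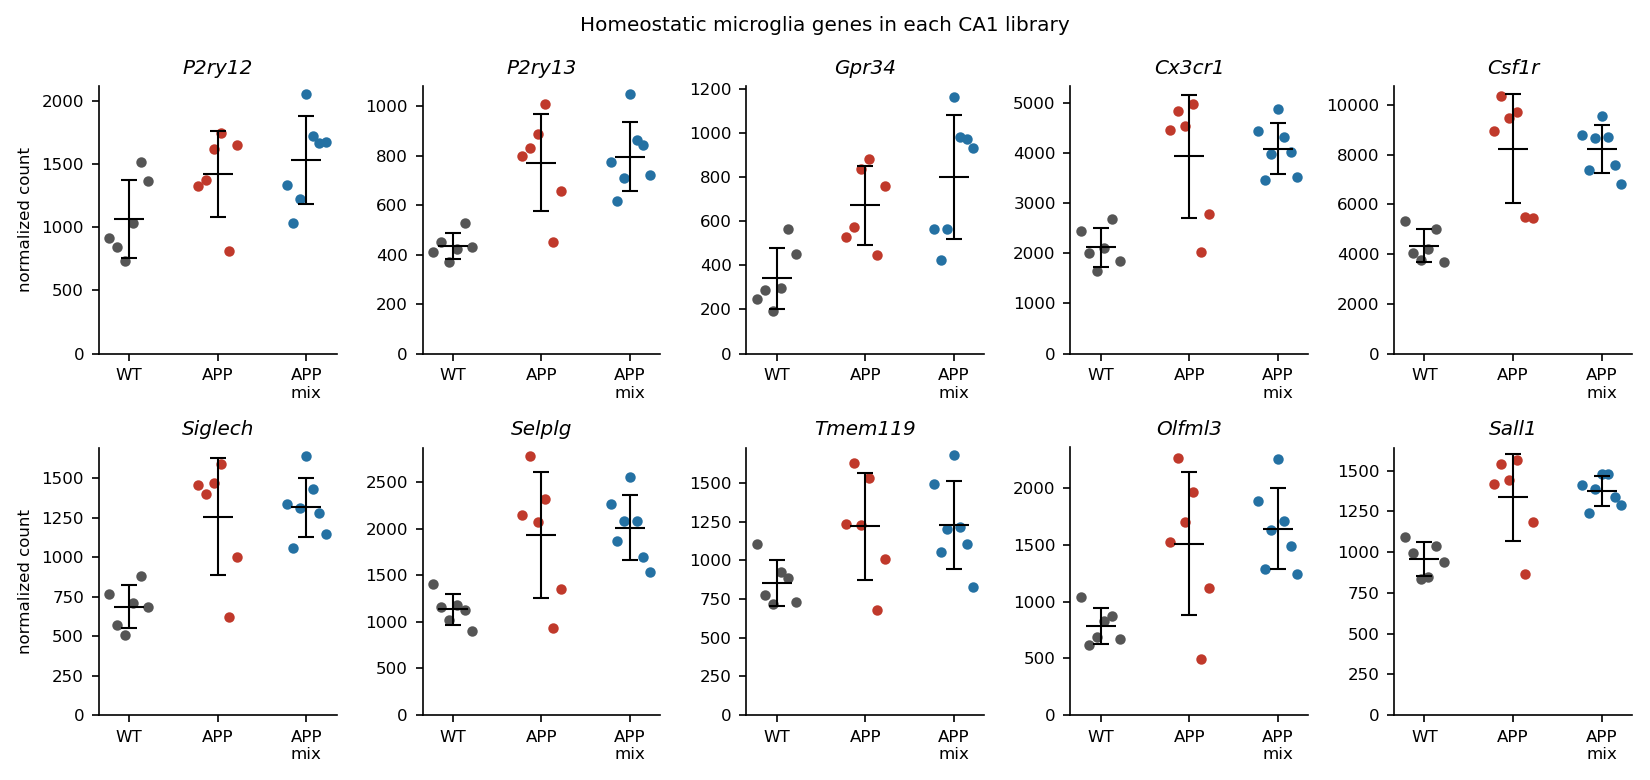
Normalized counts (y axis, linear from 0) of the 10 homeostatic genes in each library of WT control (WT, n = 6), APP control (APP, n = 6) and APP anti-miR-mix (APP mix, n = 7). Points are libraries, horizontal marks are means and bars are SD; Csf1r of all 6 APP control libraries lies above all WT control libraries, whereas P2ry12, Gpr34 and Tmem119 overlap between groups.

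Compared with WT control, APP control had higher levels of 8 of the 10 homeostatic genes, and 2, P2ry12 and Tmem119, did not pass the threshold (DESeq2, adjusted p under 0.05 over all genes tested). Among all genes tested, 3.66% were called higher in this comparison. The median log2 fold change of the 10 was 0.85, against -0.01 over all genes and 1.19 over the 12 reference genes. With edgeR 8 of the 10 were likewise called higher, against 2.78% of all genes. Only Csf1r had no overlap between APP control and WT control, a separation seen in 1.20% of all genes.

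The nucleotide and lipid receptors gave both the smallest and the largest change. P2ry12, the ADP receptor that steers microglial processes to injury (chromosome 3, 59216272 to 59262871, minus strand, GRCm38), ranged from 728 to 1515 normalized counts in WT control (median 975) and from 809 to 1742 in APP control (median 1495). The groups overlapped: APP control 1, 2 and 5 did not exceed WT control 5, which was the highest of its group. Its fold change was 1.33 (95% interval 1.02 to 1.74, DESeq2 adjusted p = 0.30), and none of 30 alternative fits or left-out libraries brought it past the threshold. P2ry13, another ADP receptor encoded 5389 bases away on the same strand (chromosome 3, 59207892 to 59210882), ranged from 372 to 529 in WT control (median 429) and from 452 to 1010 in APP control (median 816). APP control 5 alone fell inside the WT control range. P2ry13 was 1.77-fold higher (1.43 to 2.19, DESeq2 adjusted p = 1.29e-05). Gpr34, a receptor for lysophosphatidylserine (chromosome X, 13632089 to 13640858, plus strand), ranged from 194 to 565 in WT control (median 292) and from 447 to 883 in APP control (median 667). WT control 5 and 6 overlapped the lower APP control libraries. The increase was 1.97-fold (1.33 to 2.92, DESeq2 adjusted p = 0.020), and it missed the threshold without WT control 2 (adjusted p = 0.0542), WT control 4 (0.051) or APP control 3 (0.0752).

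The chemokine and growth factor receptors rose by similar factors. Cx3cr1, the receptor for fractalkine through which neurons contact microglia (chromosome 9, 119901616 to 120069879, minus strand), ranged from 1649 to 2686 normalized counts in WT control (median 2048) and from 2024 to 4977 in APP control (median 4489). APP control 5, at 2024, was the library inside the WT control range. The rise was 1.85-fold (1.46 to 2.36, DESeq2 adjusted p = 4.56e-05). Csf1r, the receptor for Csf1 and Il34 on which microglial survival depends (chromosome 18, 61100598 to 61132149, plus strand), ranged from 3697 to 5347 in WT control (median 4125) and from 5457 to 10335 in APP control (median 9203). Here the groups did not overlap. Csf1r rose 1.90-fold (1.54 to 2.33), with the smallest adjusted p of the 10 (DESeq2, 2.26e-07). It shares 873 exon bases with Hmgxb3 on the opposite strand, and reads in that stretch cannot be assigned without strand information. Hmgxb3 itself had a log2 fold change of -0.08 (DESeq2 adjusted p = 0.79).

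The surface glycoproteins split. Siglech, a sialic acid binding lectin (chromosome 7, 55768178 to 55778925, plus strand), ranged from 505 to 883 normalized counts in WT control (median 696) and from 620 to 1588 in APP control (median 1429). It was 1.83-fold higher (1.43 to 2.34, DESeq2 adjusted p = 1.13e-04), with APP control 5 inside the WT control range. Siglech also marks plasmacytoid dendritic cells. Of 6 further genes of those cells 3 (Ly6d, Klk1 and Spib) were at or under 3 counts in the median library. Bst2, Cox6a2 and Ccr9 had log2 fold changes of 0.59, 0.25 and 0.22 (DESeq2 adjusted p = 0.48, 0.57 and 0.91). The summed level of the 6 had a median of 438 in WT control and 681 in APP control. The part of these cells in the Siglech level was not tested. Selplg, the ligand of P-selectin (chromosome 5, 113818536 to 113832644, minus strand), ranged from 906 to 1409 in WT control (median 1148) and from 936 to 2780 in APP control (median 2111). The lower pair of APP control libraries, 5 and 6, lay inside the WT control range. Selplg was 1.70-fold higher (1.31 to 2.21, DESeq2 adjusted p = 0.0028). Its neighbour Tmem119, a transmembrane protein used to tell microglia from other macrophages (chromosome 5, 113793729 to 113800516, minus strand, 18019 bases from Selplg), ranged from 717 to 1106 in WT control (median 829) and from 678 to 1626 in APP control (median 1234). APP control 5 had less Tmem119 than any WT control library, and APP control 6 lay inside their range. The fold change was 1.42 (1.11 to 1.83, DESeq2 adjusted p = 0.090). Tmem119 passed without APP control 5 (adjusted p = 0.0040), without WT control 1 (0.029) or without WT control 1 and 5 together (0.036).

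Olfml3, a secreted glycoprotein of microglia (chromosome 3, 103722222 to 103738001, minus strand), ranged from 615 to 1039 normalized counts in WT control (median 757) and from 496 to 2272 in APP control (median 1613). APP control 5 held the lowest Olfml3 of both groups. The rise was 1.93-fold (1.34 to 2.78, DESeq2 adjusted p = 0.014), and it missed the threshold with WT control and APP control fitted alone (adjusted p = 0.0595). Sall1, the transcription factor that maintains microglial identity (chromosome 8, 89027235 to 89044162, minus strand), ranged from 832 to 1095 in WT control (median 967) and from 869 to 1567 in APP control (median 1429). Its spread within groups was the smallest of the 10, an SD of 0.19 on the log2 scale. Sall1 rose 1.39-fold (1.19 to 1.63, DESeq2 adjusted p = 0.0014).

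In APP anti-miR-mix the same genes were compared with the same WT control libraries, so the 2 comparisons are not independent. Of the 10 genes 9 were higher, against 5.59% of all genes, and P2ry12 was not called. Fold changes were 1.43 for P2ry12 (95% interval 1.10 to 1.85, DESeq2 adjusted p = 0.063), 1.43 for Tmem119 (1.12 to 1.82, adjusted p = 0.041), 1.44 for Sall1 (1.23 to 1.67), 1.77 for Selplg (1.38 to 2.28), 1.82 for P2ry13 (1.49 to 2.24), 1.89 for Csf1r (1.55 to 2.31), 1.92 for Siglech (1.51 to 2.43), 1.93 for Cx3cr1 (1.53 to 2.43), 2.10 for Olfml3 (1.47 to 2.99) and 2.35 for Gpr34 (1.61 to 3.43). Every APP anti-miR-mix library exceeded every WT control library in 7 genes (P2ry13, Cx3cr1, Sall1, Siglech, Csf1r, Olfml3 and Selplg), a separation seen in 2.52% of all genes. P2ry12 passed without WT control 5 or 6, APP control 5 or APP anti-miR-mix 2 or 3 (adjusted p from 0.0122 to 0.0498). It also passed without WT control 1 and 5 together (adjusted p = 0.03), without the libraries high in choroid plexus genes (0.0329), with only the groups compared in the fit (0.0466) and with limma on the deposited values (0.0332). WT control 5 and 6 held the highest P2ry12 levels of their group, and leaving either out lowers the WT control mean. Tmem119 missed the threshold with edgeR (adjusted p = 0.0887), without the libraries high in choroid plexus genes (0.0779) and when WT control 2, 3, 4, 5 or 6, APP control 3 or APP anti-miR-mix 1, 3, 4, 5 or 6 was left out (adjusted p from 0.0505 to 0.125).

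**Figure D2:**
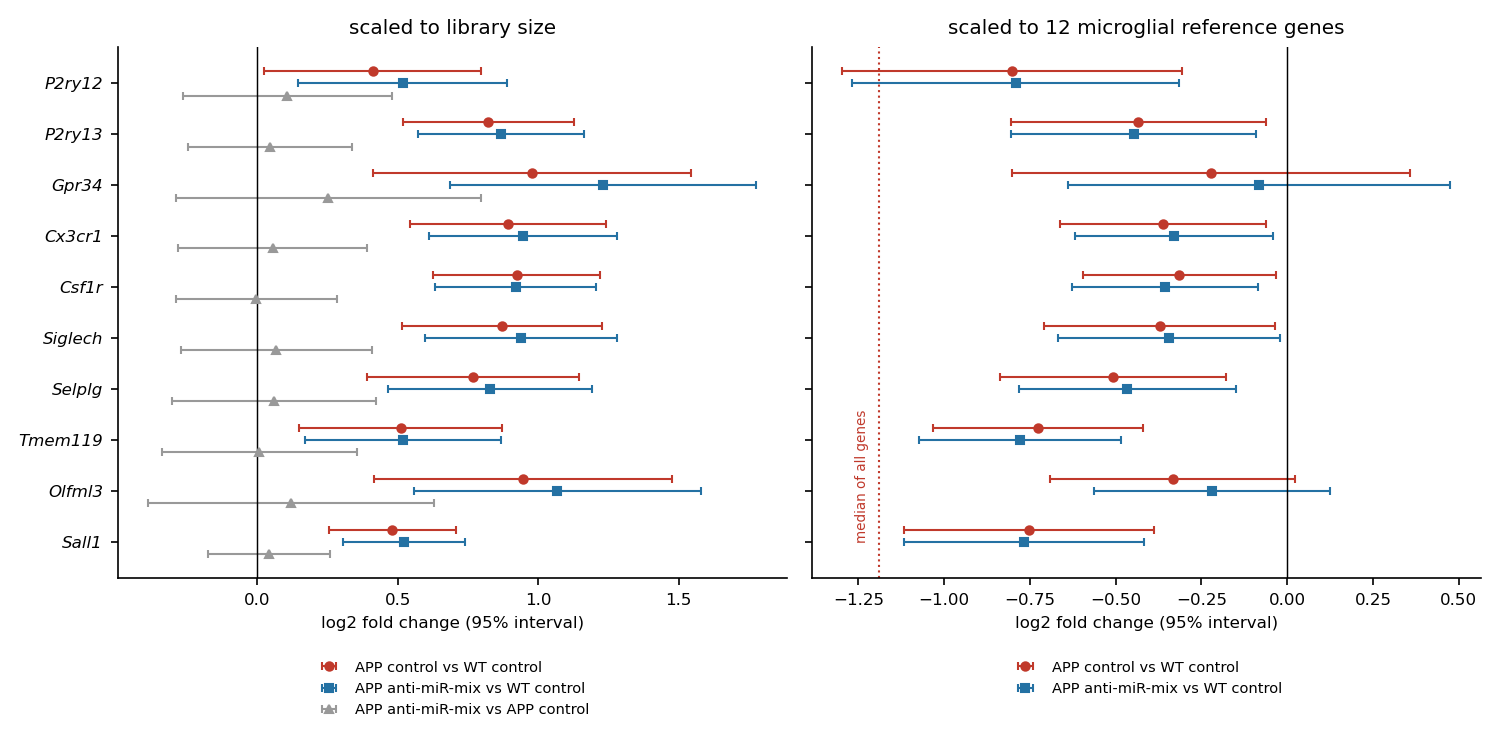
Log2 fold changes (x axis) of the 10 genes with 95% intervals (bars), scaled to library size (left) or to the 12 microglial reference genes (right). The dotted line is the median of all genes in APP control against WT control, at -1.19. Left, values against WT control lie between 0.41 and 1.23 and values between the 2 APPPS1-21 groups reach at most 0.25; right, P2ry12, Tmem119 and Sall1 lie farthest below 0.

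To set each gene beside the microglial RNA of its own library, the counts were also scaled to the 12 reference genes. On this scale a gene that rose as the reference did has a log2 fold change of 0, and a gene unrelated to microglia falls with the median of all genes, which was -1.19 in APP control against WT control. The reference genes themselves spread from -0.41 to 0.19 on this scale, and DESeq2 called 2 of the 12 lower (Aif1 and Itgam). The homeostatic genes had values of -0.80 for P2ry12, -0.75 for Sall1, -0.73 for Tmem119, -0.51 for Selplg, -0.43 for P2ry13, -0.37 for Siglech, -0.36 for Cx3cr1, -0.33 for Olfml3, -0.31 for Csf1r and -0.22 for Gpr34. DESeq2 called 8 of the 10 lower, all except Olfml3 (adjusted p = 0.071) and Gpr34 (0.46), beside 92.0% of all genes called lower on this scale. A lower call is thus the rule for any gene here, and the sizes carry the description. P2ry12 was at 0.573 of its WT control level per unit of reference (95% interval 0.407 to 0.808), Sall1 at 0.594 (0.461 to 0.764), Tmem119 at 0.605 (0.489 to 0.748) and Selplg at 0.703 (0.560 to 0.883). The scale takes each gene to follow the reference with a slope of 1. Within groups the slope was 0.46 for Sall1 and 0.49 for P2ry12, against 0.83 for Tmem119 and 0.84 for Selplg. Whether the values of Sall1 and P2ry12 go beyond their low slopes was not tested. These 4 genes were called lower in each of 24 alternative fits. P2ry13 (0.740) lay just below the lowest reference gene, while Siglech (0.773), Cx3cr1 (0.778) and Csf1r (0.804) lay inside the spread of the reference genes, as did Gpr34 and Olfml3. P2ry13, Siglech, Cx3cr1 and Csf1r lost the call with edgeR, which called 4 of the 10 beside 92.4% of all genes, and the last 3 of them with a reference of 7 transcription factor and surface genes, which called 5 beside 91.6%. Leaving out WT control 2 or 6 also removed the calls of P2ry13, Cx3cr1, Siglech and Csf1r, and WT control 3 or 4 or APP control 2, 4 or 5 removed 1 to 3 of them, with adjusted p up to 0.12. Olfml3 was called without APP control 2 (adjusted p = 0.046) or without WT control 1 and 5 together (-0.43, adjusted p = 0.0361).

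APP anti-miR-mix against WT control was read on the same scale, with WT control shared. Values were -0.79 for P2ry12, -0.78 for Tmem119, -0.77 for Sall1, -0.47 for Selplg, -0.45 for P2ry13, -0.36 for Csf1r, -0.34 for Siglech, -0.33 for Cx3cr1, -0.22 for Olfml3 and -0.08 for Gpr34. All except Olfml3 (DESeq2 adjusted p = 0.22) and Gpr34 (0.78) were called lower, beside 93.5% of all genes, and edgeR called 5 beside 93.9%, without Csf1r (0.0858), Siglech (0.101) and Cx3cr1 (0.114). The reference of transcription factors and surface genes called 6 beside 93.5% of all genes, without Siglech (0.0681) and Cx3cr1 (0.0755). Siglech lost the call without WT control 2, 4, 5 or 6 or APP anti-miR-mix 1, 3, 4, 5 or 6 (adjusted p up to 0.137), Cx3cr1 without WT control 2 or 6 or APP anti-miR-mix 3, 4 or 5 (up to 0.0695) and P2ry13 without WT control 6 (0.0566).

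**Figure D3:**
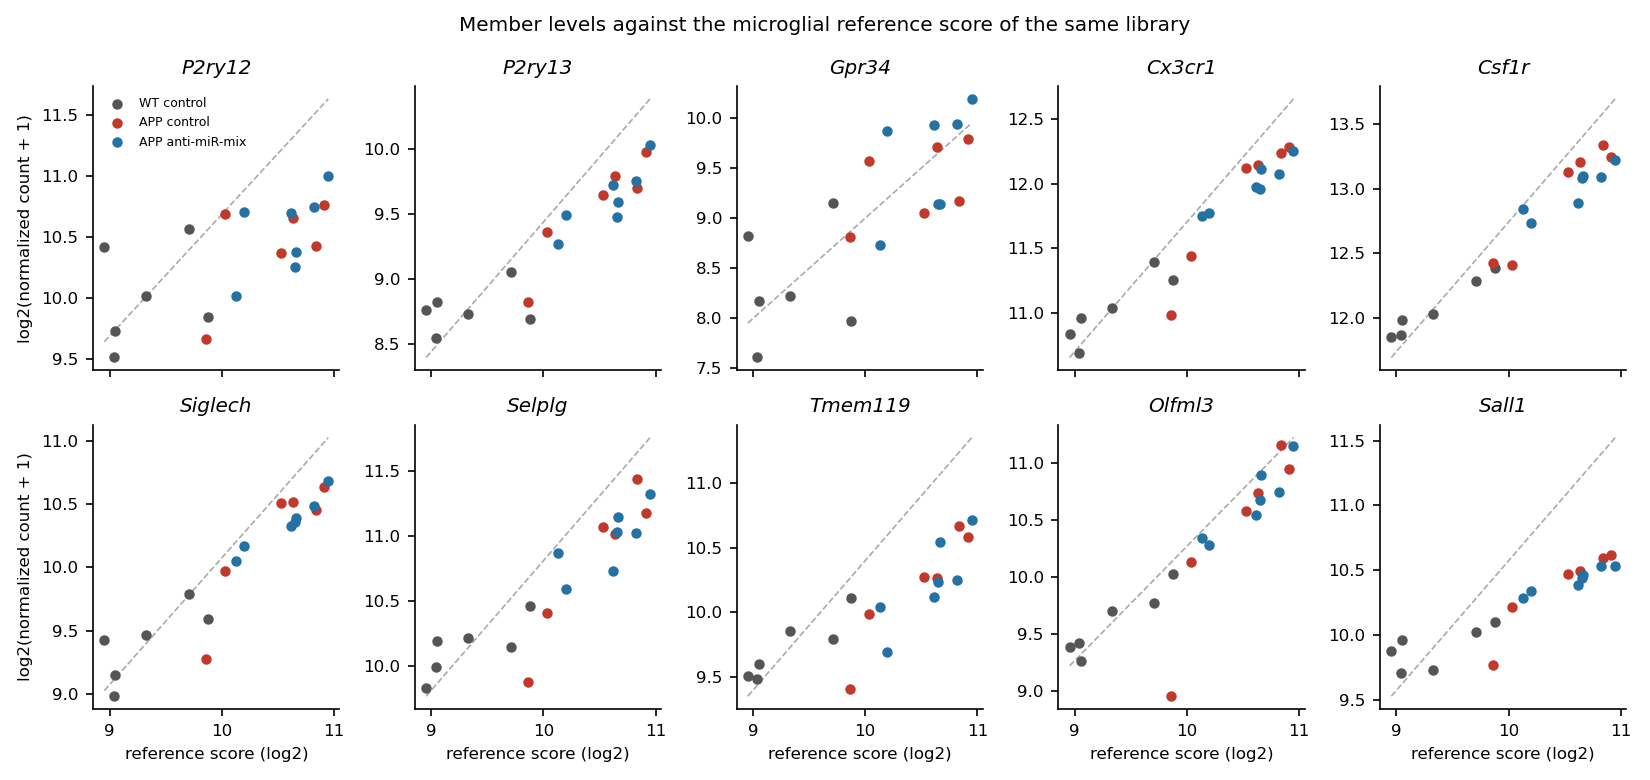
Level of each gene (y axis, log2(normalized count + 1)) against the reference score of the same library (x axis, mean log2 over 12 microglial genes) for WT control, APP control and APP anti-miR-mix libraries. The dashed line has a slope of 1 through the WT control means, so points below it gained less than the reference; Sall1, Tmem119 and P2ry12 of the APPPS1-21 libraries lie below it, while Gpr34 scatters on both sides of it.

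The ratio of any 2 genes in a library needs no reference, and it was taken for pairs of neighbouring genes on a chromosome. The log2 ratio of P2ry13 to P2ry12 averaged -1.25 ± 0.30 (SD) in WT control, -0.88 ± 0.23 among APP control libraries and -0.92 ± 0.17 with the mixture. It was higher by 0.37 in APP control, with 5 of 6 libraries above all WT control libraries (two-sided exact permutation test, p = 0.037, adjusted p = 0.055 over 6 tests), and by 0.32 in APP anti-miR-mix (exact permutation p = 0.035, adjusted p = 0.055), so neither passed after adjustment. The ratio of Selplg to Tmem119 was 0.41 ± 0.11, 0.63 ± 0.17 and 0.73 ± 0.12 in the same order. It rose by 0.32 in APP anti-miR-mix, with 7 of 7 libraries above all WT control libraries (exact permutation p = 0.0012, adjusted p = 0.0070), and the difference of 0.22 in APP control did not pass (exact permutation p = 0.026, adjusted p = 0.055). Between the 2 APPPS1-21 groups the ratios differed by -0.04 and 0.10 (exact permutation p = 0.68 and 0.23). Both pairs and these tests were chosen after the levels had been seen, and the adjustment over 6 tests does not cover that choice.

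The start regions of P2ry13 and P2ry12 are shown because these neighbouring genes, both receptors for ADP, were compared as a pair. Each covers 250 bases before to 50 after the RefSeq start (GRCm38.p6, minus strand, 5′ to 3′). Capitals mark the letters GAGGAA or, on the other strand, TTCCTC, the core bound by PU.1, the factor encoded by Spi1 of the reference list.
P2ry13, chr3:59210833-59211132: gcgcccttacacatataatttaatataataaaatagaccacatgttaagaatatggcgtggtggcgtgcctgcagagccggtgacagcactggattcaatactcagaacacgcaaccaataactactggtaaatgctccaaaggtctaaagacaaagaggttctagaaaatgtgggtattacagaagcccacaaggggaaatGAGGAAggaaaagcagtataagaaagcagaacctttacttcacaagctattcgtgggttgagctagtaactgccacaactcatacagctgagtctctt
P2ry12, chr3:59262936-59263235: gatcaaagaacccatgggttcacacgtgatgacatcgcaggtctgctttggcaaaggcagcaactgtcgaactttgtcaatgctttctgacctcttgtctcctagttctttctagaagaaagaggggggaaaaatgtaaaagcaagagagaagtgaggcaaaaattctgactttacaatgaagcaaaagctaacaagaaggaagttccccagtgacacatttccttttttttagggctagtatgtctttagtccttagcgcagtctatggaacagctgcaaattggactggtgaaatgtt
P2ry13 had 1 match, 48 bases before its start, and P2ry12 had 0. Promoter entries were matched for 6 of the 10 genes. Siglech had 1 match, and Cx3cr1, Olfml3 and the 3 entries of Sall1 had 0. Over all 32851 promoter entries 28.3% held a match on either strand, so a match describes letters and not binding.

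Within groups, P2ry12 and Gpr34 followed the reference less closely than the other 8 genes did. After the mean of each group was subtracted, the correlation with the reference score over the 19 libraries was 0.92 for Csf1r, 0.90 for Cx3cr1, 0.88 for Tmem119, 0.86 for Olfml3, 0.85 for Siglech, 0.82 for Selplg and Sall1 and 0.76 for P2ry13, and lower for P2ry12 (0.48) and Gpr34 (0.36). The slope, in log2 units of the gene per log2 unit of the reference, was 1.17 for Olfml3, between 0.71 and 0.84 for Cx3cr1, Selplg, Tmem119, Siglech and Csf1r, 0.59 for P2ry13, 0.50 for Gpr34, 0.49 for P2ry12 and 0.46 for Sall1. Tmem119 thus had a slope near that of Cx3cr1 from library to library while its change between groups was smaller. The 28 pairs of genes without P2ry12 and Gpr34 correlated at 0.74 to 0.96. P2ry12 and Gpr34 correlated with each other at 0.94 and with the other 8 genes at 0.10 to 0.80. The libraries share tissue composition and depth, so these values are descriptions.

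**Figure D4:**
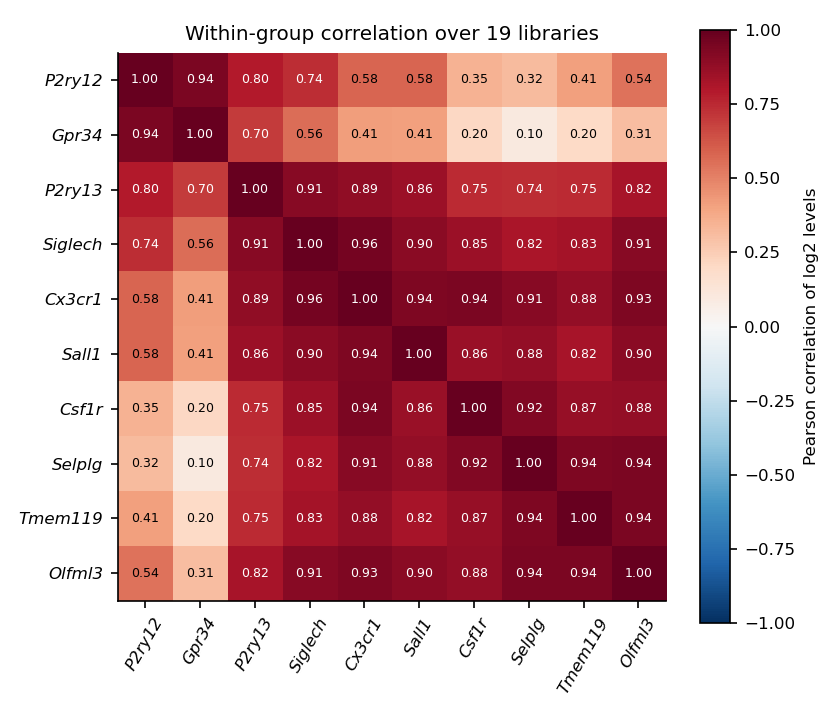
Pearson correlation (colour and printed value) of log2 levels between pairs of the 10 genes over 19 libraries after subtracting each group's mean. P2ry12 and Gpr34 correlate at 0.94 with each other and at 0.10 to 0.80 with the other 8 genes, which correlate at 0.74 to 0.96 among themselves.

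The members also varied, in either direction, with a number that the deposited values carry. The table of normalized values that the authors deposited differs from the counts by a whole number from 1 to 5 per library, of unstated meaning, multiplied by a slope per gene. The within-group correlation with this number was 0.65 for Gpr34 and 0.46 for P2ry12, and it was negative for the other 8 genes, from -0.61 for Selplg, -0.50 for Csf1r and -0.49 for Tmem119 to -0.02 for P2ry13, and -0.34 for the reference score. P2ry12 ranged from 728 to 916 normalized counts in the 3 WT control libraries with number 1 or 2 and from 1034 to 1515 in the 3 with a higher number. In APP control it did not separate this way, at 1325 to 1375 in 2 libraries and 809 to 1742 in 4, and neither did Gpr34, at 530 to 574 and 447 to 883. In APP anti-miR-mix Gpr34 ranged from 423 to 564 in 3 libraries with number 1 or 2 and from 932 to 1164 in the other 4. The number was also entered as a factor in the fit. Only WT control 6 has number 5, so that library then adds nothing to the group differences. This fit therefore cannot settle the part of the number in them. In it Gpr34 was higher in APP control (log2 fold change 0.92, DESeq2 adjusted p = 1.49e-04) and P2ry12 was at 0.39 (adjusted p = 0.19). In APP anti-miR-mix against WT control P2ry12 passed with the number as a factor (0.52, adjusted p = 0.019). It also passed with WT control 6 left out (DESeq2 adjusted p = 0.0408). A test inside each of the 5 numbers was not run, since few libraries share one.

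The genes whose within-group pattern was most like each member, by correlation over 19 libraries among 19296 others, repeated this division. For Csf1r they were Tyrobp (0.98), Cyth4 (0.97) and Ctsd (0.97), for Cx3cr1 Laptm5 (0.96), Siglech (0.96) and Trem2 (0.95), and for Selplg Hexa (0.97), Itgb5 (0.96) and Ctsd (0.95). Olfml3 was nearest to Fcrls (0.96), Hexa (0.95) and Laptm5 (0.94), Tmem119 to Gm2a, Olfml3 and Selplg (each 0.94), and Siglech to Cx3cr1 (0.96) and, among others, H2-Ob (0.94). The nearest to P2ry13 included Siglech (0.91) and Ddah1 (0.91), and Sall1 was nearest to Lap3 (0.97), Wasf2 (0.94) and Cx3cr1 (0.94). For P2ry12 they were Mfap3l (0.96), Tgfbr1 (0.94) and Gpr34 (0.94), and for Gpr34 P2ry12 (0.94), Tgfbr1 (0.93) and Golga7 (0.92). Among the 20 most similar genes, the microglial lists used here supplied 2 each for P2ry12 and Gpr34 and 5 to 11 for the other members. These lists include the members themselves, and the counts were not set beside the share of list genes among all genes compared.

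Ligands and partners of these receptors were examined as a list of 11 genes, of which Selp, the P-selectin that binds Selplg, was at or under 3 counts in the median library and was not tested. In APP control 6 of 10 were higher than in WT control and 1 was lower. Tyrobp, the adaptor through which Siglech and Trem2 signal, rose 3.92-fold, from 682 ± 236 to 2676 ± 1272 normalized counts (DESeq2 adjusted p = 6.78e-08). Tgfb1, the transforming growth factor beta ligand, rose 2.13-fold from 140 ± 19.7 to 300 ± 95.1 (adjusted p = 1.61e-07), and Nrros, which presents its latent form on microglia, 1.56-fold (adjusted p = 1.55e-04). Itgb8, an integrin that frees the ligand, and Smad3, which carries its signal, had log2 fold changes of 0.01 and -0.02 (adjusted p = 0.996 and 0.954). The growth factor Csf1 rose 1.48-fold (adjusted p = 0.0024), whereas Il34, the other Csf1r ligand and a product of neurons, had a log2 fold change of -0.04 (adjusted p = 0.94). Cx3cl1, the fractalkine of neurons, fell by 0.20 on the log2 scale, from 18417 ± 868 to 16078 ± 1251 (adjusted p = 0.049), while its receptor rose. The Src family kinase Lyn rose 1.56-fold (adjusted p = 3.92e-04). APP anti-miR-mix against the same WT control libraries called the same 6 genes higher and Cx3cl1 lower (log2 fold change -0.20, adjusted p = 0.018).

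Other lists place the homeostatic genes among the cell types of the tissue. Of 20 further homeostatic genes 14 rose in APP control, with a median log2 fold change of 0.68. Tgfbr2, the transforming growth factor beta receptor subunit, stood at 1.27 and the transporter Slco2b1 at 1.00 (DESeq2 adjusted p = 1.94e-12 and 1.92e-09). All 12 reference genes were higher. Of 18 plaque-associated genes 13 were higher, with a median of 0.75 and with Cst7, a cystatin, at 4.25, the chemokine Ccl6 at 2.87 and Trem2 at 2.18. The lowest of the 18 was at 0.12. Scaled to the reference they ran from -1.10 to 3.10, so the median does not describe the list as a whole. Macrophages of the brain borders share Csf1r and Cx3cr1 with microglia, and 2 of their 10 genes were higher, Cd163 (1.23, adjusted p = 0.018) and Pf4 (1.55, adjusted p = 0.040), at means of 47.0 and 21.5 normalized counts in APP control. Their summed level ranged from 656 to 1036 in WT control and from 786 to 1517 in APP control, where library 5 was the highest, and with the mixture from 1118 to 1331. With the mixture 5 of the 10 were called higher than in WT control, with a median log2 fold change of 0.90 beside 0.89 for the homeostatic genes. The part of these cells in the levels of Csf1r and Cx3cr1 was not tested in either comparison. Of 10 blood leukocyte genes tested DESeq2 gave none an adjusted p below that of Cd3d (0.86), and it gave S100a8 and S100a9 no adjusted p. None of 5 red blood cell genes was called by DESeq2 (smallest adjusted p = 0.114, Hba-a1), with all 5 values positive and a median of 0.81, near that of the homeostatic genes. Genes of fibroblasts and meninges had a median of 0.44, with none of 7 called (smallest DESeq2 adjusted p = 0.192, Slc6a13), and with the mixture a median of 0.67 with 2 called. The part of blood and meninges in the levels of the homeostatic genes was not tested. Astrocytes had 1 of 8 genes higher (Gfap, 1.44), neurons 2 of 10 lower (Gad1, -0.30, and Gad2, -0.26) and oligodendrocytes none of 8 called (smallest DESeq2 adjusted p = 0.819, Mobp), with medians of 0.16, -0.08 and -0.02.

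**Figure D5:**
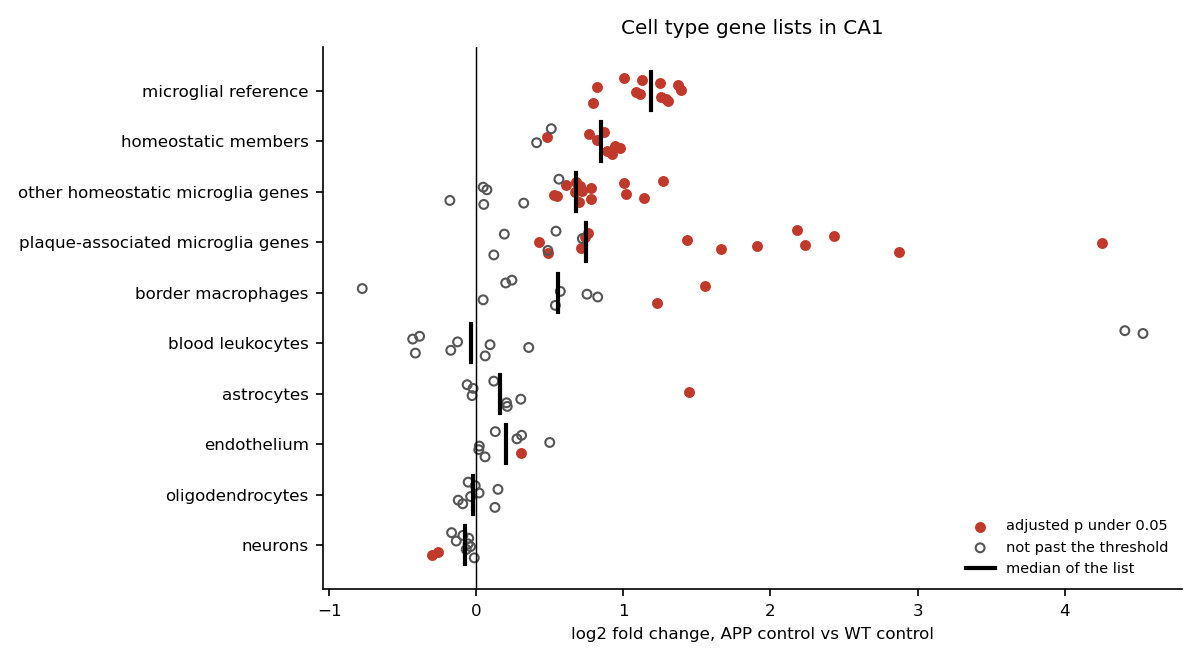
Log2 fold change of APP control against WT control (x axis) for the genes of 10 lists (rows); filled points passed the threshold, open points did not, and black bars are list medians. The homeostatic genes (median 0.85) lie between the reference (1.19) and the other homeostatic genes (0.68), while oligodendrocyte and neuron medians lie at -0.02 and -0.08.

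The effect of the microRNA inhibitors on the homeostatic genes was asked by comparing APP anti-miR-mix with APP control. A microRNA pairs with target transcripts mainly through its seed, bases 2 to 8. The mature microRNAs (RefSeq, GRCm38.p6) are given 5′ to 3′ with the seed in capitals, each followed by the inhibitor used in the study, with the bases opposite the seed in capitals, and the negative control last.
miR-181a-5p: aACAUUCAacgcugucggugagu
miR-181a-5p inhibitor: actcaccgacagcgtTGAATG
miR-146a-5p: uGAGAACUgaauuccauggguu
miR-146a-5p inhibitor: acccatggaattcAGTTCTC
miR-148a-3p: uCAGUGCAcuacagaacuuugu
miR-148a-3p inhibitor: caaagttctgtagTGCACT
Negative control of the inhibitors: taacacgtctatacgccca
The miR-146a-5p inhibitor spans 7 bases opposite the seed, and the other inhibitors span 6, leaving out the base opposite position 2. The miR-181a-5p sequence is encoded at chr1:137966468-137966490 and chr2:38852741-38852763 (plus strands), miR-146a-5p at chr11:43374435-43374456 and miR-148a-3p at chr6:51269829-51269850 (minus strands).

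Matches to the seeds were searched in the 3′ UTR of the transcript with the longest coding sequence of each gene (GENCODE M21), on the transcript strand. For miR-181a-5p the letters TGAATGT occurred in 0 of the 10 genes, against 16.3% of 15153 tested genes with a 3′ UTR. AGTTCTC, the match to miR-146a-5p, occurred in Csf1r and Olfml3 (1672 of those 15153 genes), and TGCACTG, the match to miR-148a-3p, occurred at 2 places in P2ry13 (13.4% of tested genes). The sites outside Csf1r are shown with the match in capitals.
Olfml3, 3′ UTR bases 484 to 490, miR-146a-5p: cctctgatcagAGTTCTCgtggctctgcc
P2ry13, 3′ UTR bases 1212 to 1218, miR-148a-3p: ttggtccgcacTGCACTGtacatagaacc
P2ry13, 3′ UTR bases 1410 to 1416, miR-148a-3p: tttgctaaataTGCACTGtgcaattaata
The other 7 genes held no match to any of the 3 seeds in these transcripts, which says only that these letters are not there. The 3′ UTR searched was 13 bases long for Siglech, 443 for Selplg and 495 for Gpr34, so Siglech was in effect not searched.

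None of the 10 genes passed the threshold when the mixture group was set against APP control (DESeq2, adjusted p = 1.00 for each, with 0 of 10 at an unadjusted p under 0.05). Across all genes 0 passed, or 0%, with 552 at an unadjusted p under 0.05, and edgeR called 0 with 572. P2ry13 ranged from 618 to 1049 normalized counts in APP anti-miR-mix (median 773) and from 452 to 1010 in APP control, with a fold change of 1.03 (95% interval 0.843 to 1.26). Olfml3 ranged from 1241 to 2262 (median 1629) with 1.09 (0.764 to 1.55), and Csf1r from 6818 to 9544 (median 8681) with 0.997 (0.818 to 1.22). The 3 genes with a seed match thus had intervals that include no change and differences of up to 1.55-fold. The remaining fold changes were 1.08 for P2ry12 (0.831 to 1.39), 1.01 for Tmem119 (0.790 to 1.28), 1.04 for Cx3cr1 (0.823 to 1.31), 1.03 for Sall1 (0.886 to 1.20), 1.05 for Siglech (0.827 to 1.33), 1.04 for Selplg (0.810 to 1.34) and 1.19 for Gpr34 (0.817 to 1.74). Sall1 had the narrowest interval and Gpr34 the widest on the log2 scale. Scaled to the microglial reference, 0 of the 10 were called (0% of all genes, with 150 at an unadjusted p under 0.05, and 1 gene called by edgeR), and log2 fold changes lay between -0.05 and 0.14.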

How the data were processed

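RNA sequencing libraries were made from CA1 of 19 mice. The authors checked reads with FastQC 0.11.5, aligned them to mm10 with STAR 2.5.2b and deposited raw counts per gene from featureCounts (Subread 1.5.1). They also deposited a table of normalized log2 values for 18825 genes, which was used to read the whole number per library described above and in 1 alternative test. Symbols and exon lengths came from GENCODE M21.

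From the raw counts, genes reaching 5 counts in 50% of libraries or more were tested with DESeq2 1.42.0 (R 4.3.3), as in the study, in 1 fit of the 3 groups with Benjamini-Hochberg adjustment and a threshold of 0.05. Size factors came from all genes or from the 12 reference genes. The scripts were tested on simulated data. Alternatives were edgeR 4.0.16, limma 3.58.1, TMM factors, other filters, other references, a replicate block, the whole number as a factor and each library left out in turn. Ratios of neighbouring genes were added after the data were seen.

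Named are the 10 members, all ligands and partners, the 3 genes with the smallest adjusted p of other lists, with genes near 0, and the 3 genes most like each member. Members and lists were chosen with earlier results of these data known. Total counts per library set the precision: at 3 counts or fewer a gene was taken as not detectable. Some genes that this rule names are not reported here. No sequence is shown for Csf1r. Promoter entries for Tmem119, Gpr34, Csf1r and Selplg were not used here.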

Additional observations from a re-analysis of the deposited data

Results flagged for a closer look

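P2ry12 in APP control 5 lay apart from the other libraries of its group, at 809 normalized counts against 1325 to 1742. The gap was 0.643 of the whole range on the log2 scale. Of 33 groups of libraries examined in this way 1 stood out, and chance alone gives about 1 in 20, or 1.65 here. The same library held the highest S100a8 and S100a9 of all, and the part of this in its P2ry12 level was not tested. Without APP control 5 the log2 fold change of P2ry12 between APP control and WT control was 0.53, with a DESeq2 adjusted p of 0.0682.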

How the results depend on the processing

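Against WT control, 7 to 9 of the 10 genes were called higher in APP control under the alternatives run (2.03% to 4.8% of all genes) and 8 to 10 with the mixture (3.11% to 7.71%), and 0 differed between the APPPS1-21 groups. Scaled to the reference, DESeq2 called 8 lower in APP control, edgeR 4 and the reference of transcription factors and surface genes 5, and leaving out single libraries gave 4 to 8, while 88.6% to 93.9% of all genes were called lower. In APP anti-miR-mix against WT control edgeR called 5, and leaving out single libraries gave 5 to 8, beside 91.1% to 94.5% of all genes. The cause was not tested.

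Signs turned for small differences between the APPPS1-21 groups, none past the threshold. The log2 fold change of Csf1r was 0.000303 with edgeR, 0.000161 with TMM factors, 0.0597 with the replicate block, 0.018 with the whole number as a factor, 0.066 with the replicate block in edgeR, 0.027 with limma and 0.015 without the libraries high in choroid plexus genes. With single libraries left out it ranged from -0.098 to 0.071 for Csf1r, -0.013 to 0.18 for P2ry12, -0.0701 to 0.14 for P2ry13, -0.11 to 0.11 for Tmem119, -0.079 to 0.13 for Cx3cr1, -0.056 to 0.092 for Sall1, -0.072 to 0.15 for Siglech, -0.061 to 0.27 for Olfml3 and -0.083 to 0.19 for Selplg, and from -0.013 to 0.20 for the reference score. Gpr34 relative to the reference spanned -0.41 to 0.0064 for APP control and -0.24 to 0.14 for the mixture group, each against WT control.

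Same-numbered libraries deviated together in part: their correlation over 5000 genes had a median of 0.40, against -0.048 for other pairs, but ranged from -0.094 to 0.79, with 14 of 18 pairs above 0.1, and 7 libraries correlated best with their own number. The labels tie the numbers to no litter, batch or day, and not every pair passed 0.1, so the fits reported have no block. With the replicate block 9 genes were called in APP control (Tmem119 added, adjusted p = 0.0142), beside 4.16% of all genes, and 9 with the mixture, beside 6.36%, 0 differed between the APPPS1-21 groups, and 8 lay below the reference in each comparison with WT control, beside 92.8% and 94.5% of all genes, although Csf1r lost that call in APP control (0.0509) and Olfml3 gained it (0.0461). In edgeR the block gave 7 and 9, beside 3.09% and 5.67%: in APP control it did not call Tmem119 and lost Olfml3 (0.063). These DESeq2 and edgeR fits used 6 or 7 animals a group, which limits their precision.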
